A study of Homo sapiens with 6 samples.

Results

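The 45 genes described here encode the proteins that license replication origins and copy DNA, together with a few enzymes that supply deoxynucleotides or rebuild chromatin behind the fork. They were listed by name for their roles, from MCM2 to MCM7 and the origin recognition complex through to the polymerases, with no threshold on a measured value, although earlier results of these data were known. All 45 were found by symbol in the platform annotation, among 17687 genes tested. The cells were A375, an established human melanoma line, transfected with a predesigned siRNA to ERK3 (siERK3) or a negative control one (siCon), using the same reagent in both groups. ERK3, encoded by MAPK6, is an atypical mitogen-activated protein kinase. RNA was taken 3 days after transfection and hybridised to Clariom S Pico human arrays, 3 per group, and each value is a log2 signal of 1 probe set on 1 array. Whether the replicates came from separate cultures is not in the labels, so every p-value here reflects the spread among these 6 arrays, part of which may be technical.

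Replication starts from origins that are prepared beforehand. The origin recognition complex (ORC), with CDC6 and CDT1, loads the ring-shaped MCM2-7 helicase onto DNA in G1 phase. At S phase entry the CDC7-DBF4 kinase and cyclin-dependent kinases turn the loaded ring into an active helicase by adding CDC45 and the GINS complex. Polymerase alpha with primase lays down primers, the RFC complex loads the PCNA clamp, polymerases delta and epsilon extend, and FEN1 and LIG1 join the lagging-strand fragments. Many of these genes are targets of E2F transcription factors, so their transcripts are known to accumulate as cells pass from G1 into S phase. In bulk RNA, fewer cells in S phase and less RNA per cell cannot be told apart.

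The target of the siRNA was low in every siERK3 array. MAPK6 lay at 13.45, 13.55 and 13.62 in siCon 1, 2 and 3 and at 10.54, 10.32 and 10.67 in siERK3 1, 2 and 3, a log2 change of -3.03 ± 0.14 (SE) with an adjusted p of 0.000133 in limma. The 95th percentile of 612 negative control probe sets, used here as the background level, lay between 7.32 and 7.56 on the 6 arrays. Above it on all 6 arrays were 35 of the 45 replication genes. CDT1, MCM10, POLD1 and LIG1 lay below it on all 6, and ORC6, CDC7, CDC25A, GINS4, POLA2 and POLE above it on some arrays. On the second principal component of all genes siCon 2 (-26.5) and siERK3 3 (-15.2) stood apart from the other arrays (4.35 to 21.7). On the component after it, siERK3 1 (-19.8) and siERK3 3 (19.4) lay at opposite ends. Of 9 melanocytic lineage markers MITF, SOX10, TFAP2A and S100B lay above background on all 6 arrays and PAX3, MLANA, PMEL, TYR and TYRP1 below it on all 6. Their mean level was 6.97 to 7.18 in siCon and 6.96 to 7.19 in siERK3. Of 5 leukocyte markers CD68 and LYZ lay above background on all 6 arrays and the defining PTPRC, CD3E and CD14 below it. Their mean level was 7.18 to 7.33 in siCon and 6.87 to 7.07 in siERK3, without overlap. Of 5 fibroblast markers COL1A2 and LUM lay above background (mean 6.88 to 7.27 in siCon and 6.98 to 7.17 in siERK3), of 4 epithelial markers KRT18 (6.00 to 6.27 and 6.09 to 6.35), and of 4 endothelial markers none (4.94 to 5.34 and 4.95 to 5.14). The part of these markers in the results below was not tested.

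None of the 45 replication genes passed the test between groups. At an adjusted p under 0.05 in limma, adjusted over all genes, 0 of 45 were called, against 0.956% of all genes (0.509% lower and 0.447% higher). At an unadjusted p under 0.05 in limma there were 5, or 11.1%, against 13.5% of all genes. CDC6 was the higher one, against 6.98% of all genes higher at that level, and ORC6, CDT1, DBF4 and RRM1 were the lower ones, against 6.5% of all genes; CDT1 lay below background on all 6 arrays. The count of 5 was 2, 4 and 1 without siCon 1, 2 or 3, and 4, 0 and 2 without siERK3 1, 2 or 3. In these fits the share of all genes was 10.8% to 13.4%. The median log2 change of the 45 genes was -0.11, against 0.00 (-0.0014) over all genes, with 29 negative and 16 positive changes, where 50.2% of all genes had a negative one. The changes ran from -0.52 for ORC6 to 0.53 for CDC6. Without siERK3 3 the median was -0.0032, against -0.17 without siERK3 1. The groups did not overlap for 7 of the 45 genes, or 15.6%, against 19.8% of all genes. Higher in siERK3 were 3 (ORC4, MCM3 and POLA1), against 10.1% of all genes, and lower were 4 (ORC3, CDT1, RFC3 and RRM1), against 9.7%. The 95% interval of limma lay between a fall and a rise of 2-fold for 43 of the 45 genes, and within 0.5 on the log2 scale in either direction for 20. The 43 include CDT1, MCM10, POLD1 and LIG1, and the 20 include POLD1. These genes lay below background on all 6 arrays, so their intervals do not bound a fold. CDC7, CDC25A, GINS4, POLA2 and POLE, also among the 43, lay below background on some arrays, so their intervals may not bound one either.

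**Figure D1:**
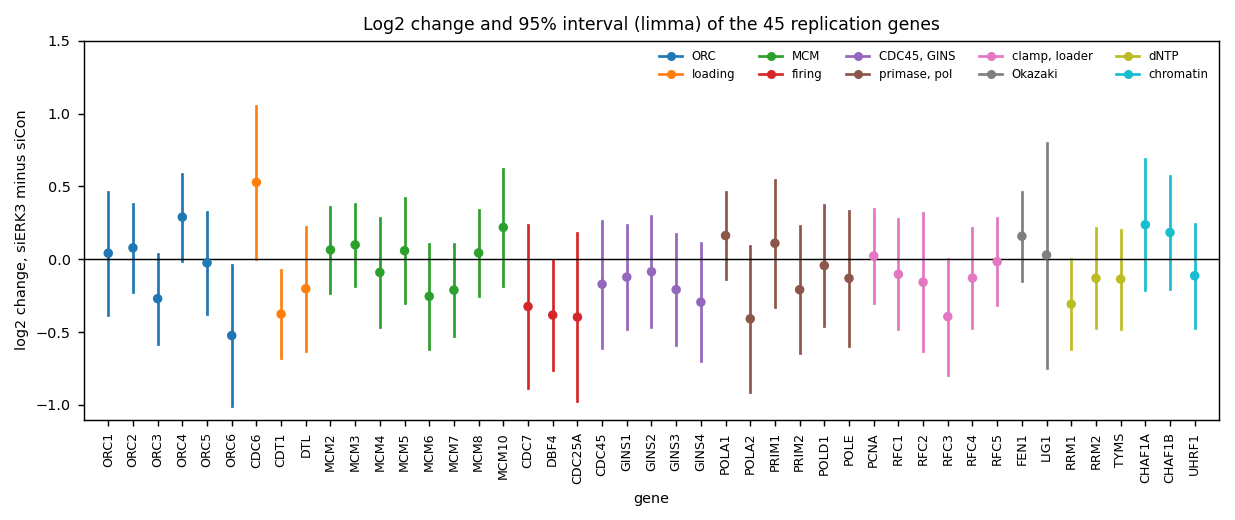
Log2 change (siERK3 minus siCon, vertical axis) of each of the 45 replication genes, with the 95% interval of limma as a line, coloured by role. Points lie between -0.52 (ORC6) and 0.53 (CDC6), and most intervals cross 0.

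The origin recognition complex marks the sites where the helicase is loaded, and its genes had no common direction, with 3 positive and 3 negative changes. ORC1, the subunit whose level is known to vary over the cell cycle, lay at 9.45, 9.70 and 9.72 in siCon and at 10.04, 9.51 and 9.43 in siERK3 (log2 change 0.04, SE 0.19; adjusted p = 0.954). Only siERK3 1 lay above the siCon range, and siERK3 3 lay just below it. ORC5 lay at 12.23, 12.44 and 12.60 in siCon and at 12.27, 12.57 and 12.35 in siERK3, with all 3 siERK3 values inside the siCon range. ORC6, the smallest and least conserved subunit, lay at 8.15, 7.41 and 7.70 in siCon and at 7.43, 6.94 and 7.30 in siERK3 (log2 change -0.52, SE 0.21; adjusted p = 0.332). The groups overlapped for ORC6, and 1 of 3 siERK3 arrays was above background. ORC3 and ORC4, both subunits of the ORC core, were split without overlap in opposite directions, with log2 changes of -0.27 and 0.29 (adjusted p = 0.443 and 0.389). For ORC2 the siERK3 arrays lay between 9.76 and 9.79, the smallest SD among siERK3 arrays of all 45 genes (0.016).

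Helicase loading needs CDC6 and CDT1, and DTL encodes the adaptor through which CDT1 is degraded once S phase has begun. CDC6 lay at 10.14, 9.40 and 9.95 in siCon and at 10.65, 10.42 and 10.00 in siERK3 (log2 change 0.53, SE 0.23; adjusted p = 0.369). This was the largest positive change of the 45 genes, but siERK3 3 lay inside the siCon range and siCon 2 lay well below the other siCon arrays. CDT1 lay at 6.43, 6.59 and 6.38 in siCon and at 6.02, 6.07 and 6.18 in siERK3 (adjusted p = 0.264). The groups did not overlap for CDT1, but its values lay below background on every array, so no change is given. DTL lay at 12.13, 11.79 and 12.02 in siCon and at 11.99, 11.94 and 11.41 in siERK3, where siERK3 3 alone lay below the siCon range (log2 change -0.20, SE 0.19; adjusted p = 0.709).

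The 6 subunits of the MCM2-7 helicase had log2 changes between -0.25 (MCM6) and 0.10 (MCM3), with 3 negative and 3 positive. In all 6 the value of siERK3 1 lay above that of siERK3 3, and siERK3 3 was the lowest siERK3 array for 4 of them. MCM4 lay at 12.37, 12.20 and 11.85 in siERK3 1, 2 and 3, against 12.10 to 12.30 in siCon, and MCM5 at 9.58, 9.29 and 9.08, against 9.16 to 9.34. For both genes siERK3 1 lay above the siCon range and siERK3 3 below it. MCM3 was split without overlap, by 0.10 (adjusted p = 0.796), and had siERK3 values of 10.29 to 10.41. MCM8, a paralog known for a role in recombination repair and not part of the ring, lay at 13.14, 13.00 and 12.94 in siCon and at 13.12, 13.01 and 13.09 in siERK3, a difference within the spread. MCM10, which helps activate the loaded helicase, lay below background on all arrays.

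The genes that fire licensed origins all had negative changes, none of which passed the test. DBF4, the regulatory subunit of the CDC7 kinase, lay at 10.39, 10.04 and 10.61 in siCon and at 9.92, 10.05 and 9.93 in siERK3 (log2 change -0.38, SE 0.17; adjusted p = 0.363). The siERK3 arrays lay close together and 1 of them reached the lowest siCon value. CDC7 itself lay at 8.28, 7.57 and 7.69 in siCon and at 7.13, 7.53 and 7.92 in siERK3, so that here siERK3 1 was the lowest and siERK3 3 the highest siERK3 array. The siERK3 1 value of CDC7 lay below background. CDC25A, the phosphatase that activates cyclin-dependent kinases at S phase entry, lay at 7.44, 7.12 and 6.40 in siERK3 against 7.16 to 7.56 in siCon, with 1 of 3 siERK3 arrays above background. Its log2 change was -0.40 (SE 0.25).

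CDC45 and the 4 GINS genes, whose products complete the active helicase, had negative changes from -0.29 (GINS4) to -0.09 (GINS2), again with 0 past the threshold. GINS4 lay above background on 1 of 3 siCon arrays and 0 of 3 siERK3 arrays. CDC45 lay at 8.47, 8.51 and 8.68 in siCon and at 8.73 and 8.42 in siERK3 1 and 2, with siERK3 3 lower than siERK3 1 by 0.73 (log2 change -0.17, SE 0.19; adjusted p = 0.767). Its siERK3 arrays spanned the whole siCon range and beyond, and without siERK3 3 the change was 0.02. GINS1 lay at 10.55, 10.35 and 10.66 in siCon and at 10.64, 10.27 and 10.29 in siERK3, a difference of -0.12 (SE 0.16) that was smaller than the spread. GINS3 had the opposite pattern of spread, with siERK3 values of 8.58 to 8.65 inside a siCon range of 8.50 to 9.07.

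Among the primase and polymerase genes 4 changes were negative and 2 positive. PRIM1, the catalytic subunit of primase, lay at 10.51, 10.85 and 10.66 in siCon and at 10.89, 11.06 and 10.40 in siERK3 (log2 change 0.11, SE 0.19; adjusted p = 0.860). PRIM2, its partner subunit, lay at 10.16, 10.32 and 10.32 in siCon and at 10.42, 9.68 and 10.07 in siERK3 (log2 change -0.21, SE 0.19; adjusted p = 0.707). The partners differed in which array was low, siERK3 3 for PRIM1 and siERK3 2 for PRIM2. POLA1, the catalytic subunit of polymerase alpha, had siCon values of 9.30 to 9.32 and siERK3 values of 9.33 to 9.60, a split of 0.16 that did not pass (adjusted p = 0.663). POLA2, its second subunit, differed by -0.41 (SE 0.22; adjusted p = 0.484), with siERK3 3 at 7.25 and the other siERK3 arrays at 7.89 and 7.99. POLE, the catalytic subunit of the leading-strand polymerase, was low in siERK3 2 (7.12) and lay at 7.81 and 7.84 in the other siERK3 arrays. The low values of POLA2 in siERK3 3 and of POLE in siERK3 2 lay below the background of those arrays (7.40 and 7.39).

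PCNA, the sliding clamp, lay at 12.74, 12.56 and 12.76 in siCon and at 12.89, 12.66 and 12.59 in siERK3 (log2 change 0.02, SE 0.14; adjusted p = 0.969). The 95% interval of this change ran from -0.30 to 0.34. The 5 RFC genes, which encode the clamp loader, all had negative changes, from -0.39 (RFC3) to -0.02 (RFC5). RFC3 lay at 12.27, 12.24 and 12.59 in siCon and at 12.18, 12.06 and 11.68 in siERK3 (log2 change -0.39, SE 0.18; adjusted p = 0.377). The groups did not overlap, although siERK3 1 lay just under the siCon arrays. RFC2 lay at 10.09, 9.88 and 9.75 in siCon and at 10.14, 9.77 and 9.33 in siERK3 (log2 change -0.16, SE 0.21; adjusted p = 0.809), and without siERK3 3 its change was 0.05. FEN1, the nuclease that trims lagging-strand fragments, lay at 11.60, 11.73 and 11.68 in siCon and at 11.96, 11.84 and 11.68 in siERK3 (log2 change 0.16, SE 0.13; adjusted p = 0.683). LIG1, the ligase of the same step, had the largest SD among siERK3 arrays (0.789) with all its values below background.

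RRM1, the large subunit of ribonucleotide reductase, lay at 13.88, 13.83 and 13.90 in siCon and at 13.74, 13.45 and 13.49 in siERK3. Every siERK3 value was below every siCon value, but the difference of -0.31 (SE 0.14) did not pass (adjusted p = 0.370). RRM2, the small subunit, and TYMS, which makes thymidylate, differed by less than the spread of their siERK3 arrays, by -0.13 and -0.14. Behind the fork, CHAF1A and CHAF1B encode subunits of the chromatin assembly factor CAF-1 and UHRF1 recruits the maintenance methyltransferase to hemimethylated DNA. UHRF1 lay at 9.79, 9.80 and 9.94 in siCon and at 9.99, 9.68 and 9.51 in siERK3 (log2 change -0.11, SE 0.16; adjusted p = 0.818). CHAF1A and CHAF1B had positive differences of 0.24 and 0.18, and for both siERK3 1 was the highest of the 6 arrays.

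**Figure D2:**
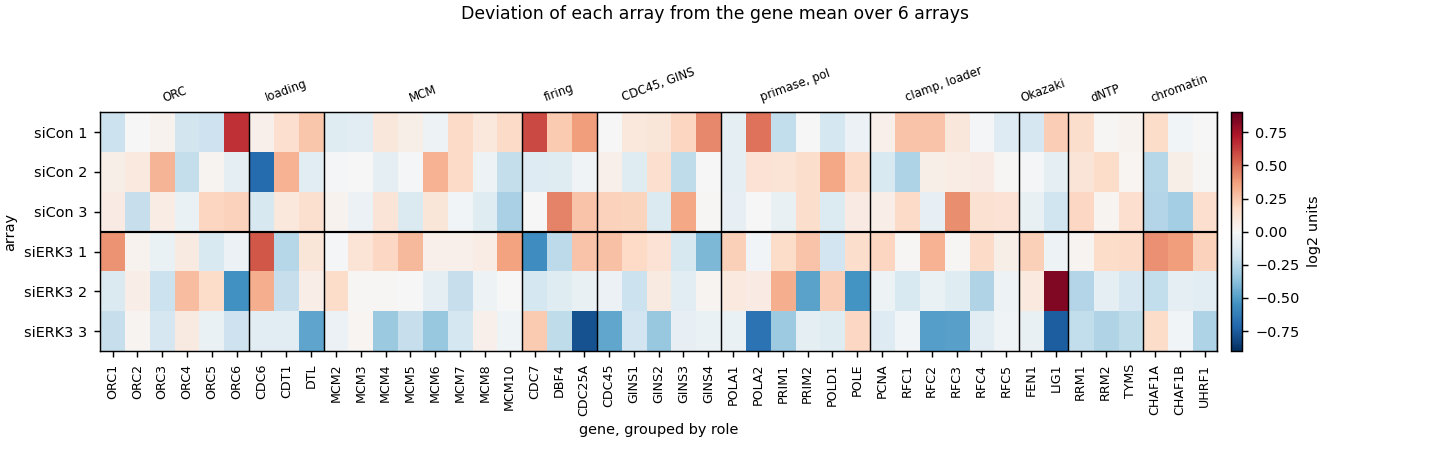
Deviation of each array (rows) from the mean of the 6 arrays for each replication gene (columns, grouped by role), in log2 units, with red above and blue below the mean. Red is frequent in siERK3 1 and blue in siERK3 3, as in MCM4, MCM5, CDC45 and RFC2; CDC7 runs the other way.

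The siERK3 arrays differed among themselves more than the siCon arrays did in most replication genes. The median SD of the 45 genes was 0.218 among siERK3 arrays and 0.150 among siCon arrays. Over all genes it was smaller in siERK3, at 0.172 against 0.191. Without siERK3 1, 2 or 3 the median of the 45 genes in siERK3 was 0.126, 0.244 and 0.179. These are SDs of 2 arrays, to be read beside 0.108 to 0.133 in siCon with 1 siCon array left out. The siERK3 SD was the larger for 31 of 45 genes, or 68.9%, and for 44.7% of all genes. Among genes above background on all 6 arrays the siERK3 SD was larger for 26 of 35 replication genes and for 45.1% of 7721 genes. This spread among the siERK3 arrays was part of what the genes had been set apart to show, so the counts are a description with no test.

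**Figure D3:**
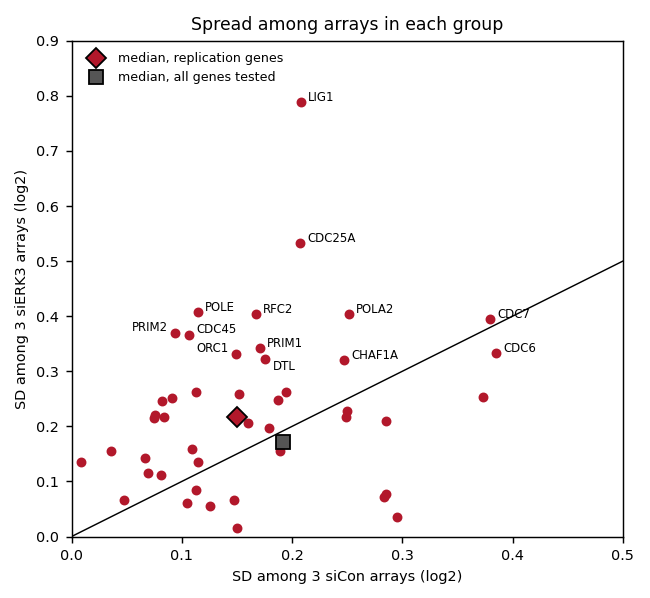
SD among the 3 siERK3 arrays (vertical axis) against SD among the 3 siCon arrays (horizontal axis), in log2 units, 1 point per replication gene, with the line of equality. The median of the 45 genes (diamond, 0.150 and 0.218) lies above the line and that of all genes tested (square, 0.191 and 0.172) below it.

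The spread had a common form. In siERK3 the array 1 value was above the array 3 value for 37 of the 45 genes, against 50.1% of all genes, and the median difference was 0.29 on the log2 scale, against 0.0012 over all genes. Array siERK3 1 was the highest of the 3 for 31 genes (68.9%, against 33.8% of all genes). Array siERK3 3 was the lowest for 24 (53.3%, against 34.6%). Among genes above background on all 6 arrays, siERK3 1 was above siERK3 3 for 32 of 35 (91.4%, against 56.1% of 7721 genes). There siERK3 1 was the highest for 28 (80.0%, against 35.8%) and siERK3 3 the lowest for 20 (57.1%, against 41.7%). Averaged over the 45 genes, the deviation from the mean of the 6 arrays was 0.09 in siERK3 1, -0.04 in siERK3 2 and -0.18 in siERK3 3, and 0.09, 0.00 (0.0012) and 0.04 in siCon 1, 2 and 3. Over these 45 genes the siERK3 arrays thus spanned 0.27 and the siCon arrays 0.085, with siERK3 1 close to siCon 1 and siERK3 3 below all the others. Over the 35 genes above background on all 6 arrays the means were 0.14, -0.04 and -0.17 in siERK3 1, 2 and 3. In siCon 1, 2 and 3 they were 0.03, -0.01 and 0.05, so there siERK3 1 lay above every siCon array. MAPK6 did not follow this order, being lowest in siERK3 2 and highest in siERK3 3. The part of the array-wide differences on the second principal component and the next one in this pattern was not tested.

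The form was seen in the means of most roles, taken over all genes of the role. In the mean of every role except chromatin assembly siERK3 3 was the lowest array, from -0.08 for ORC to -0.41 for FEN1 and LIG1. The lagging-strand value rested on LIG1, which lay below background. Other role means also hold genes below background on some or all arrays, and none was taken without them. These genes are ORC6, CDT1, MCM10, CDC7, CDC25A, GINS4, POLA2, POLD1 and POLE. Of the loading genes above background on all 6 arrays, CDC6 was lowest in siCon 2 (9.40) and DTL in siERK3 3 (11.41). The mean of MCM2 to MCM7 was 0.11, -0.02 and -0.18 in siERK3 1, 2 and 3, and 0.01 to 0.06 in siCon. The firing genes differed, since their mean in siERK3 1 was -0.18, below all 3 siCon arrays. In siERK3 1 CDC7 (7.13) lay below background (7.32), as did CDC25A (6.40) in siERK3 3 (background 7.40). DBF4 in siERK3 1 (9.92) lay below all 3 siCon arrays, and CDC25A (7.44) within its siCon range. The genes with the largest SD among siERK3 arrays, of those above background on all 6 arrays, were RFC2 (0.404), PRIM2 (0.370), CDC45 (0.366), PRIM1 (0.342), CDC6 (0.333) and ORC1 (0.332). In RFC2, CDC45, CDC6 and ORC1 siERK3 1 was the highest and siERK3 3 the lowest array of the group, and in PRIM1 and PRIM2 it was not so.

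**Figure D4:**
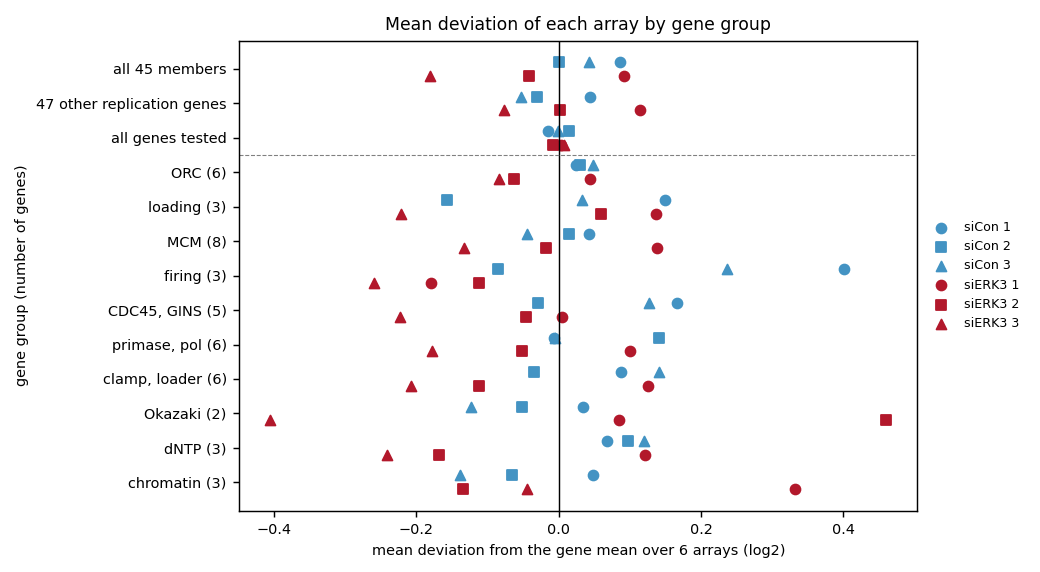
Mean deviation from the 6-array mean (log2, horizontal axis) of each array, for all 45 members, for 47 other replication genes, for all genes tested and for each role (vertical axis, number of genes in brackets), with siCon in blue and siERK3 in red. The triangle of siERK3 3 lies at -0.18 for the 45 genes and the circle of siERK3 1 at 0.09, while all arrays lie near 0 over all genes.

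Other genes of the replication fork, 50 listed by name of which 47 were measured, were examined beside the 45. They include polymerase subunits, RPA, fork protection factors, topoisomerases and histone chaperones. In limma 0 of 47 passed over all genes, against 0.956% of all genes, and 3 higher (6.38%, against 6.98%) and 2 lower ones (4.26%, against 6.5%) reached an unadjusted p under 0.05. The groups did not overlap for 12, or 25.5% against 19.8% of all genes, with 9 higher (19.1%, against 10.1%) and 3 lower (6.38%, against 9.7%). The median log2 change was -0.0013, with 24 negative and 23 positive. POLD3, a subunit of polymerase delta, lay at 9.22, 9.38 and 9.13 in siCon and at 10.00, 10.05 and 9.80 in siERK3 (log2 change 0.71, SE 0.14; adjusted p = 0.0644). DNMT1, the maintenance DNA methyltransferase, lay at 10.02, 10.15 and 9.83 in siCon and at 10.80, 10.51 and 10.79 in siERK3 (log2 change 0.70, SE 0.15; adjusted p = 0.0777). Both genes were split without overlap, and both passed when genes below the 30th percentile of mean level were left out (adjusted p = 0.0324 and 0.0411 in limma). With that filter 365 of all genes passed, against 169 without it. TOP1, a topoisomerase that relieves torsion ahead of the fork, differed by -0.50 (SE 0.18; adjusted p = 0.272). ATAD5, which unloads PCNA, differed by 0.41 (SE 0.17; adjusted p = 0.331).

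In these 47 genes too, siERK3 1 lay above siERK3 3, for 40 of 47. Their mean deviation was 0.11, 0.0013 and -0.08 in siERK3 1, 2 and 3, and -0.05 to 0.04 in siCon. Unlike the 45 genes, they did not have the larger SD in siERK3, where their median was 0.136, against 0.162 in siCon.

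The promoters are shown because many replication genes are known E2F targets and their transcripts differed together between siERK3 1 and siERK3 3. RefSeq promoters (GRCh38.p14) were matched for 42 of the 45 genes. The 250 bases before each listed start were searched on both strands for the E2F words TTTCCCGC, TTTGGCGC, TTTCGCGC and TTTGCCGC; no other motif was searched. At least 1 listed start of 17 of the 42 genes (40.5%) held such a word, against 16.2% of 37 other replication genes and 3.40% of all 27305 genes in the promoter table. Counted by promoter, the share was 33.3% of 54 promoters of these genes, 11.5% of 52 promoters of the other replication genes and 2.79% of all 35116 promoters in the table. Shown are the 4 with the largest SD among siERK3 arrays of the genes that hold a word and were picked out by p, spread above background or brightness. LIG1, CDC25A, POLE, POLA2 and CDC7 also hold one and had larger SDs than these 4, but were not picked out in that way. The same holds for GINS2 (SD 0.258) beside UHRF1 (0.245) and PCNA (0.159), and for TYMS (0.215) and MCM6 (0.197) beside PCNA. Each is the gene's own strand, 5′ to 3′, ending at the base before the start, with the E2F word in capitals.
DTL, chr1:212035498-212035747, plus strand: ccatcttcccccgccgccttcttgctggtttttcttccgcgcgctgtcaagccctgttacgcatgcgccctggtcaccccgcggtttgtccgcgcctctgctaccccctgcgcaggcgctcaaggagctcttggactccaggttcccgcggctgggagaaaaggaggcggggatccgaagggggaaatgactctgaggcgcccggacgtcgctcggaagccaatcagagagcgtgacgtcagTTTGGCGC
RFC3, chr13:33817899-33818148, plus strand: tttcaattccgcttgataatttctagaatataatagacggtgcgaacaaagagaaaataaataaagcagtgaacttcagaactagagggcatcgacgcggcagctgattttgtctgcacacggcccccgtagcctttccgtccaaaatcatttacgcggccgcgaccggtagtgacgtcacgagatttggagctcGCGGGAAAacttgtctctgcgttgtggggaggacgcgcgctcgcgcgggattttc
UHRF1, chr19:4909251-4909500, plus strand: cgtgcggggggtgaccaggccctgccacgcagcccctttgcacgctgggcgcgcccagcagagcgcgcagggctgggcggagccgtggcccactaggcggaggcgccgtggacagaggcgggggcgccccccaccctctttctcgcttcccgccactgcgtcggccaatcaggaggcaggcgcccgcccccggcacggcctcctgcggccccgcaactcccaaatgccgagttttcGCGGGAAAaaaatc
PCNA, chr20:5126623-5126872, minus strand: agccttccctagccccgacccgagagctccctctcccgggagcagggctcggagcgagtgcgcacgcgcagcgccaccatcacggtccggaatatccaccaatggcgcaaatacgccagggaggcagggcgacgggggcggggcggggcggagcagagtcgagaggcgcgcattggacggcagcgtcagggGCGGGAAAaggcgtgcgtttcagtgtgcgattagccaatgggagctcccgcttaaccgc
In DTL the word TTTGGCGC begins 8 bases before the start. In RFC3, UHRF1 and PCNA the opposite strand holds TTTCCCGC, read here as GCGGGAAA, beginning 55, 14 and 59 bases before it. The PCNA promoter belongs to 1 of several listed starts of that gene. The 17 genes with a word had a median difference between siERK3 1 and siERK3 3 of 0.39, with 14 positive (CDC7, at -0.79, was among the exceptions), and the 25 without one of 0.25, with 21 positive. These are letter matches in a window and a description of 2 arrays, and the difference between the gene sets was not tested.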

How the data were processed

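The authors deposited log2 signals of 24351 probe sets on each array; that they are log2 was inferred from their range. Which software summarised and normalized them is not stated in the labels. Array medians lay close together, at 7.06 to 7.10, from which scaling of the arrays before deposit was inferred. The zero point and any stretch of the scale stay unknown, and a fold depends on them. The platform annotation gave 1 symbol for 17709 probe sets. The brightest of each gene was kept, which left 17687 genes, with no filter on low values. For the 45 members there was 1 probe set each. Beyond that, levels of different genes were ranked only to choose the brightest of each role for description and in the alternatives that filter on level.

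Groups were compared over all genes in R 4.3.3 by limma 3.58.1 (lmFit, then eBayes, no covariate), adjusted by Benjamini-Hochberg over all genes at a threshold of 0.05; adjusted p-values are from this fit unless another setting is named beside them. SE and 95% intervals are limma's. The script was tested on simulated data. The precision is limited by 3 arrays per group. The genes picked out for description were the 6 smallest p, the 6 largest siERK3 SD among genes above background on all 6 arrays, and the brightest of each role. MCM3 to MCM6, ORC2 to ORC4, CDC7, CDC25A, GINS3, POLA1, POLA2, POLE and LIG1 were named after their values were seen. The members and lists were chosen with earlier results of these data known. Alternatives were other normalizations, filters on low levels, the mean of probe sets, a variance trend, array weights, a replicate block and each array left out.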

Additional observations from a re-analysis of the deposited data

How the results depend on the processing

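In each of the 17 other settings run, 0 of the replication genes measured passed the threshold in limma. The count at an unadjusted p under 0.05 in limma was 5 as reported, against 13.5% of all genes. It was 4 to 7 in the settings that kept all arrays, against 11.9% to 24.4% of all genes. The 7 came with the 30th percentile filter (of 45, against 17.9% of all genes) and the median filter (of 41, against 22.9%). With 1 array left out the count was 0 to 4, against 10.8% to 13.4% of all genes. It was 2 without siCon 1, 4 without siCon 2 and 1 without siCon 3. It was 4, 0 and 2 without siERK3 1, 2 and 3. The median log2 change of the 45 genes was -0.17 to -0.0032 with 1 array left out, reaching -0.0032 without siERK3 3 and -0.0035 without siCon 2 and siERK3 3 together, a setting chosen after seeing the data. The median SD among siERK3 arrays was 0.126 to 0.244 with 1 array left out, the lowest without siERK3 1. Without a siERK3 array it was an SD of 2 arrays. The SD of 2 siCon arrays had a median of 0.108 to 0.133. The mean deviations of siERK3 1 and siERK3 3 kept their signs in the settings that held those arrays and changed the values, genes or arrays used; the variance trend, array weights and the block do not bear on them.

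Of the other replication genes, 2 of 46 passed with the 30th percentile filter and 2 of 42 with the median filter. Over all genes 365 and 581 passed there, against 169 as reported. Among genes above background on all 6 arrays, a setting added after seeing the data, 2 of 40 passed, against 628 of 7721 genes. POLD3 and DNMT1 were the 2 each time. With a mean-variance trend 3 of 47 passed (also TOP1), against 722 of 17687 genes, and with array weights 1 (POLD3), against 218. With 1 array left out 0 of these 47 passed, and POLD3 had an adjusted p of 0.0926 to 0.216 in limma. With the replicate number as a block 0 of the 45 passed. An unadjusted p under 0.05 in limma was reached by 4, against 5 without the block (11.9% and 13.5% of all genes). Deviations of same-numbered arrays correlated at 0.05, -0.12 and -0.04, and those of differently numbered arrays at -0.15 to 0.17. With 3 arrays per group these values cannot decide whether the numbers pair the samples. The sign of small changes turned with the arrays used, with 1 array left out from -0.15 to 0.16 for ORC1, -0.12 to 0.067 for ORC5, -0.0012 to 0.10 for MCM8, -0.34 to 0.020 for CDC45, -0.026 to 0.30 for PRIM1, -0.067 to 0.086 for PCNA and -0.35 to 0.050 for RFC2. Without siCon 2 and siERK3 3 together ORC5 had 0.0068, CDC45 0.00034 and RFC2 0.036. The cause was not tested. Of 303 refits of the 18 genes picked out by p, spread or brightness, 289 kept direction and side of the threshold, and 14 changed direction.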
